A study of Leucoraja erinaceus with 4 samples.

Results

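Abundant liver transcripts of the little skate, Leucoraja erinaceus, a cartilaginous fish that senses electric fields, were set apart by how little of them was found in 3 other tissues of the same adult animal. Poly(A) RNA was sequenced from liver (a piece of 4 mg, per the labels) and from the 3 other tissues. These were ampullary receptor cells, which sense the field, ampullary canals, which connect those cells with the skin surface, and body skin that lacks electroreceptors. No treatment, sex or age beyond adult was used to form groups, and every tissue gave 1 library. An assembled gene, the unit of the deposited tables, was counted as liver-restricted when it had 1000 or more reads in liver and a level in liver at least 16 times that in each of the other libraries. The level was the count per 1000000 reads of the library (CPM), with 0.5 added. By this rule 217 of 186064 assembled genes were liver-restricted, which is 22.0% of the 986 with 1000 or more liver reads. The members were thus chosen by their liver reads and their ratios to the other tissues, so both are given below as a description of the set and not as a result of a test. With 1 animal and 1 library per tissue, no difference between tissues has a replicate check and no p-value was computed.

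The vertebrate liver secretes most of the proteins of the blood plasma, among them clotting factors, complement components, carriers of lipid, iron and hormones, and, in mature females of egg-laying species, the yolk precursor vitellogenin. In cartilaginous fishes it is also the main store of lipid and a site where urea is made, which these animals retain as an osmolyte. Such transcripts are typically few in kind and very abundant. The identifiers of the deposited tables are assembly numbers, and 0 of them were found among 23250 RefSeq genes of this species, so no role is assigned to any assembled gene here. The liver label was not checked against liver marker genes for the same reason. Restricted means restricted among these 4 tissues, since no other organ was analysed here. In whole tissue, fewer cells of a type and less RNA per cell cannot be told apart.

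The liver-restricted set held 5529401 of the 11071249 liver reads, a share of 49.94% (exact binomial 95% interval 49.91 to 49.97). The same assembled genes held 9975 of 12240037 reads in receptor cells (0.0815%, 0.0799 to 0.0831), 9422 of 12303108 canal reads (0.0766%, 0.075 to 0.0781) and 10233 of 11716890 in skin (0.0873%, 0.0857 to 0.089). Intervals cover counting error only, since every tissue has 1 library. They treat reads as independent, which reads made from PCR copies are not, so they may be too narrow even for counting error. Because the set fills this much of the library, the CPM of every other liver transcript would be 2.0 times as high with the set left out of the total.

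Reads were concentrated on few members. The 3 most abundant took 10.8% of all liver reads, the 12 most abundant 27.6% and the 50 most abundant 42.6%. The 117 members below rank 100 together took 2.91%. Liver reads ran from 1000 to 439801 with a median of 5408, and 13 members had 100000 or more while 48 had fewer than 2000. Of the 10 assembled genes with most reads in liver, 9 were members. The count was 41 of the top 50, 68 of the top 100 and 165 of the top 500.

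**Figure D1:**
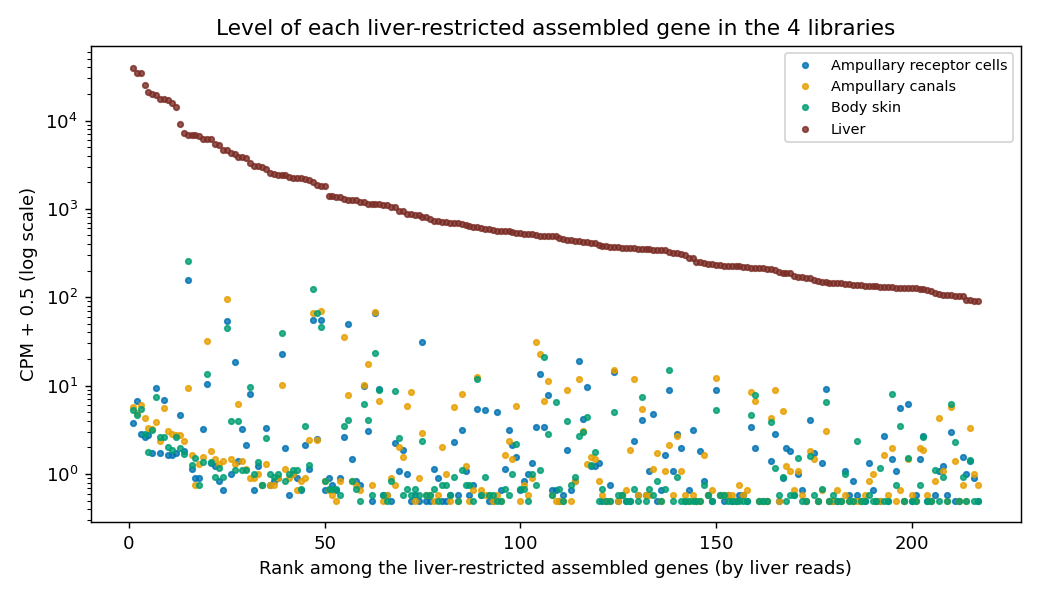
Level of each of the 217 liver-restricted assembled genes (x axis, rank by liver reads) in the 4 libraries (y axis, CPM + 0.5, log scale), 1 point per library. Liver levels fall from 39720 to 90.32 CPM, while most points of the other libraries lie near the lower end of the axis and 15 members have no read outside liver.

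The top of the set was formed by transcripts of very different length. The most abundant member, 1613 bases long, had 439801 reads in liver, 40 in receptor cells, 57 in skin and 65 in canals. The next, 2590 bases long, had 381081 in liver and 76, 48 and 54 in the other tissues, in the same order. Assembled gene c89492_g1, the longest of the set at 14271 bases, had 378683 reads in liver, 29 in receptor cells, 58 in skin and 69 in canals. Liver stood alone for all of them, with fewer than 100 reads in each other library.

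Counted per length, the order changed. TPM, the transcripts per 1000000 that RSEM computed for the authors, divides reads by effective length. On that scale c89492_g1 stood at rank 25 of the set, not at the third place it had by reads, at 2876.88 TPM in liver. The highest TPM belonged to the member of read rank 11, which is 430 bases long with an effective length of 207.36 bases. It had 175859 reads in liver and 90509.77 TPM there, against 14, 29 and 16 reads in receptor cells, canals and skin. The most abundant member by reads came next, at 33770.15 TPM. TPM of a short transcript depends strongly on the effective length, so the first place is less certain than the read count behind it. The set as a whole held 41.2% of the liver TPM, against 49.9% of the reads.

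Ratios to single tissues were largest, by the lower end of their interval, for 6 members. Ratios here are of CPM without the added 0.5, with an exact 95% interval from both counts. Against receptor cells, c89492_g1 was 14440-fold higher in liver (10050 to 21560) and c70616_g2, with 218921 liver reads against 15, was 16140-fold (9783 to 28830). Against canals, c94606_g1 had 75222 reads in liver and 3 in canals, a 27860-fold ratio (9534 to 135100). Assembled gene c46175_g1 had 194736 and 23, a 9409-fold ratio (6270 to 14840). The wide interval of c94606_g1 comes from its 3 canal reads. Against skin, c69679_g1 had 231668 reads in liver and 15 in skin, a 16350-fold ratio (9910 to 29200). Assembled gene c88276_g1 had 73441 and 3, a 25910-fold ratio (8865 to 125600). These members are long to medium in length, from 1672 bases (c69679_g1) to 14271, and 4 of the 6 have a single assembled transcript.

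Over the whole set, the level in liver was between 16.12 and 6869 times that of the next highest tissue on the CPM + 0.5 scale, with a median of 325.8. A ratio of 64 or more was reached by 176 members, 256 or more by 120 and 1024 or more by 52. The added 0.5 limits what a scarce transcript can reach, since 1000 liver reads with none elsewhere give 181.6. Against the single tissues, 26.2% of the 986 assembled genes with 1000 or more liver reads were at least 16-fold higher in liver than in receptor cells, 27.4% than in canals and 27.7% than in skin. All 217 members pass each of these by the rule.

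Most abundant liver transcripts outside the restricted set failed the 16-fold limit against every other tissue. Failing this limit does not mean an equal level, since liver can still be several-fold higher. Liver was less than 16-fold above every other tissue for 661 of the 986, which held 23.5% of the liver reads. A single tissue kept out 42 more, of which 17 were due to skin, 13 to canals and 12 to receptor cells. A pair of tissues kept out 66, of which 31 were due to receptor cells with canals, 24 to receptor cells with skin and 11 to canals with skin. The most abundant liver transcript kept out by receptor cells alone is 1389 bases long and had 42162 reads in liver, 6027 in receptor cells, 4 in skin and 118 in canals. The corresponding one for canals had 9524 reads in liver, 1462 in canals, 635 in receptor cells and 295 in skin. For skin it had 21124 in liver, 1923 in skin, 1330 in canals and 917 in receptor cells. The first of these was nearly absent from skin, while the others had at least 295 reads in every tissue.

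**Figure D2:**
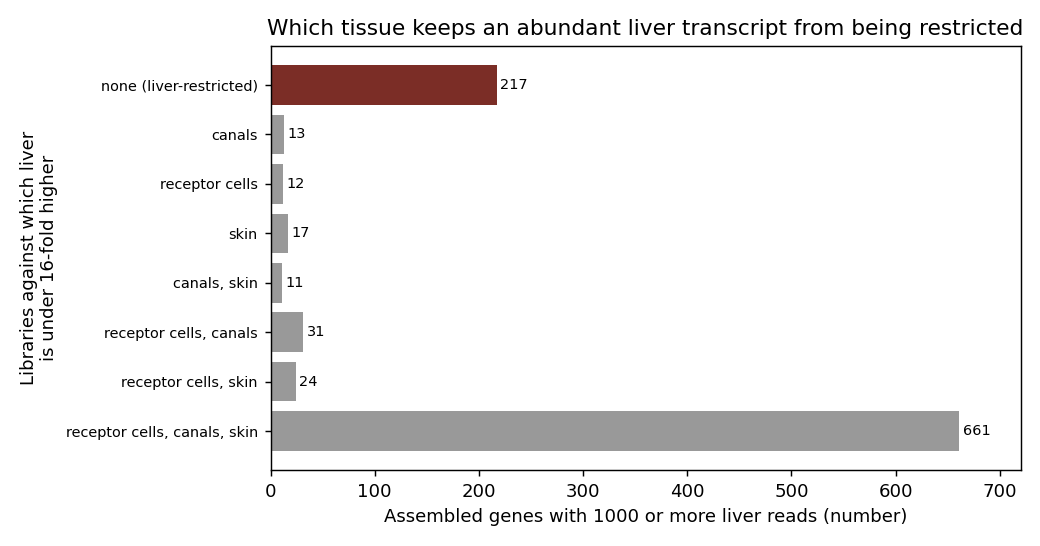
Number of assembled genes with 1000 or more liver reads (x axis, bar length) by the libraries against which the liver level was less than 16-fold higher (y axis). The 217 that passed against all libraries and the 661 that passed against none are the longest bars, and no other bar exceeds 31.

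Near the threshold, the members just inside the fold limit were at 16.12 times the next tissue (22163 reads in liver, 1450 in skin) and 16.18 times (1429 in liver, 88 in skin). Those just outside were at 15.26 times (1287 in liver, 88 in canals) and 14.8 times (1635 in liver, 117 in canals). Between 16-fold and 32-fold lay 25 members, and between 8-fold and 16-fold 31 assembled genes that were not counted. At the read limit, members with 1000 and 1004 liver reads were counted, while others with 984 and 961 were not.

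Reads of the set outside liver were few for most members and many for a handful. Of the 217, 15 had no read in any other library, and 57 had at most 3 in all others together. No read was found for 46 members in receptor cells, 60 in skin and 44 in canals, and 0 reads allow up to 0.245, 0.256 and 0.244 CPM there. The 15 without any read elsewhere had 1145 to 4212 liver reads, and all of the 52 members with most liver reads had reads in all 3 other libraries. The most abundant of the 15, 2669.7 bases long, had 4212 liver reads, or 380.4 CPM. The tissue with the highest level after liver was receptor cells for 75 members, canals for 72 and skin for 55. The order of these counts depended on the scaling, since TMM factors, applied to the rule as well, gave 67 for receptor cells, 108 for canals and 58 for skin. They rest largely on members with few reads, and the median member had 6 reads in receptor cells, 3 in skin and 5 in canals. The counts by next highest tissue were not made for other assembled genes, so they have no baseline.

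At the top of the set, the reads elsewhere were a small fraction of the liver reads. Among the 12 most abundant members, with 159423 to 439801 liver reads, the level in canals was 106.3 to 293.7 CPM for every 1000000 CPM in liver, with a median of 149.9. In skin it was 61.18 to 359.6 (median 121.8) and in receptor cells 61.98 to 467.5 (median 83.31). All 3 tissues thus had between 14 and 110 reads of each of these 12. Further down, the same ratio spread out. Among the 44 members with fewest liver reads (1000 to 1819), the median was 1003 per 1000000 in receptor cells and 892.1 in canals, and 23 of the 44 had no skin read. A single read of a member with 1000 liver reads already gives a ratio above that of any of these 12, so the ratios of scarce members are coarse. The source of the few reads outside liver was not tested.

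**Figure D3:**
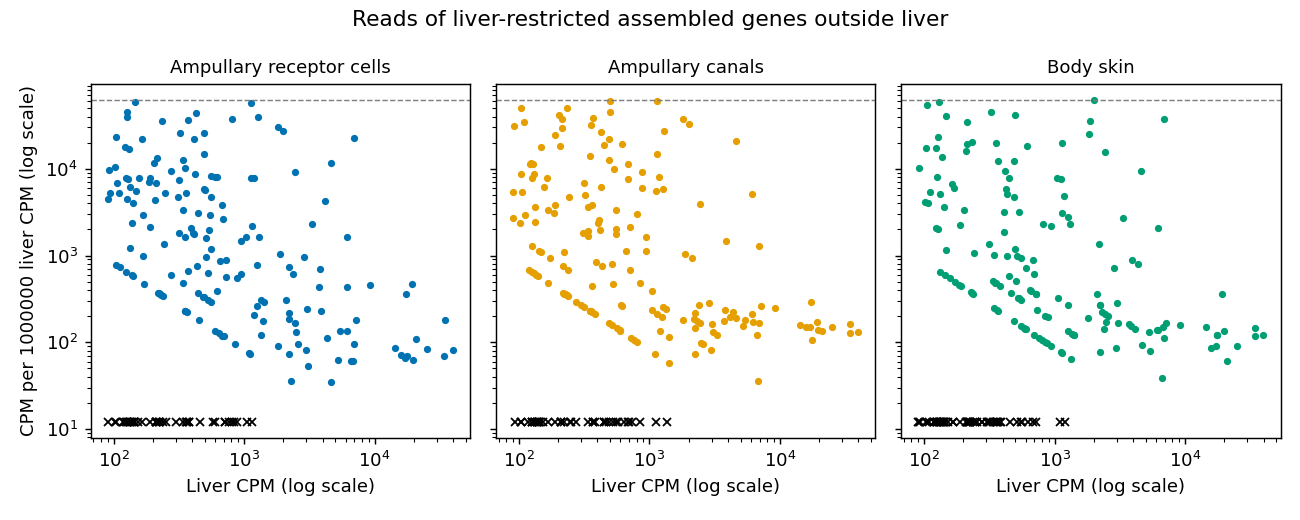
Level of the 217 liver-restricted assembled genes in receptor cells, canals and skin (panels), as CPM per 1000000 CPM in liver (y axis, log scale), against the liver level (x axis, CPM, log scale). Points are members with reads, crosses at the lower edge mark members with no read in that library, and the dashed line is the 16-fold limit without the added 0.5. Members above 10000 CPM in liver lie in a band. It runs from 106.3 to 293.7 in canals, from 61.18 to 359.6 in skin and from 61.98 to 467.5 in receptor cells. Members with less liver RNA spread up to the limit.

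Many abundant members below the 12 most abundant departed from that band in at least 1 tissue, and those given here are examples. The member of rank 15, 6070 bases long, had 76840 reads in liver, 3041 in skin, 1908 in receptor cells and 110 in canals, and so the most reads outside liver of the whole set. The member of rank 25, 1537 bases long, had 50954 in liver, 1175 in canals, 653 in receptor cells and 515 in skin. Their direct neighbours in rank had at most 41 reads in any of these tissues. Other members had most of their remaining reads in 1 tissue. The member of rank 27 had 218 reads in receptor cells beside 46092 in liver, with 10 in canals and 7 in skin. The member of rank 48 had 20735 in liver and 772 in skin, with 24 each in receptor cells and canals. Such members carried most of the reads outside liver. The 10 with most reads in a library made up 64.3% of the set's reads in receptor cells, 74.3% in skin and 58.6% in canals.

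The levels of the set among the 3 other tissues, ratios that the rule did not use directly, differed by 4-fold or more in a minority of the members that had 10 or more reads in 1 of both tissues. Between receptor cells and canals, 110 members met this minimum, and 13 (11.8%) were at least 4-fold higher in receptor cells and 11 (10%) in canals. The shares over all 31368 assembled genes with that minimum were 15.7% and 5.33%. Between receptor cells and skin (99 members), 13 (13.1%) were higher in receptor cells and 7 (7.07%) in skin, against 14.9% and 8.4% of all. Between canals and skin (98 members), 15 (15.3%) were higher in canals and 9 (9.18%) in skin, against 11.5% and 13.9% of all. The minimum was missed by 107 members in the first pair, 118 in the second and 119 in the third, so these counts describe the better measured part of the set. All these shares rest on library totals and were not computed with another scaling. TMM factors differed between these tissues, at 1.476 for receptor cells, 1.010 for canals and 1.111 for skin, so the shares may depend on the scaling.

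Most members were long assembled sequences. The median length in liver was 1852 bases (quartiles 1233.2 and 2534.7), from 340 to 14271. The other 769 assembled genes with 1000 or more liver reads had a median of 2295 (1414 and 3516), and all 186064 had 309. Of the members, 90 (41.5%) were from 1000 to under 2000 bases long, against 26.3% of the other abundant ones, and 21 (9.68%) were 4000 bases or longer, against 17.3%. Among assembled genes with 5000 or more liver reads the medians were close, 2005 bases for 111 members and 2031 for 113 others. The difference in the median was therefore seen among the less abundant ones, and it was not tested. Across the 217 members, log2 length and log2 liver reads had r = 0.254 and rho = 0.236, a description across sequences of 1 library whose liver reads also chose the set.

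**Figure D4:**
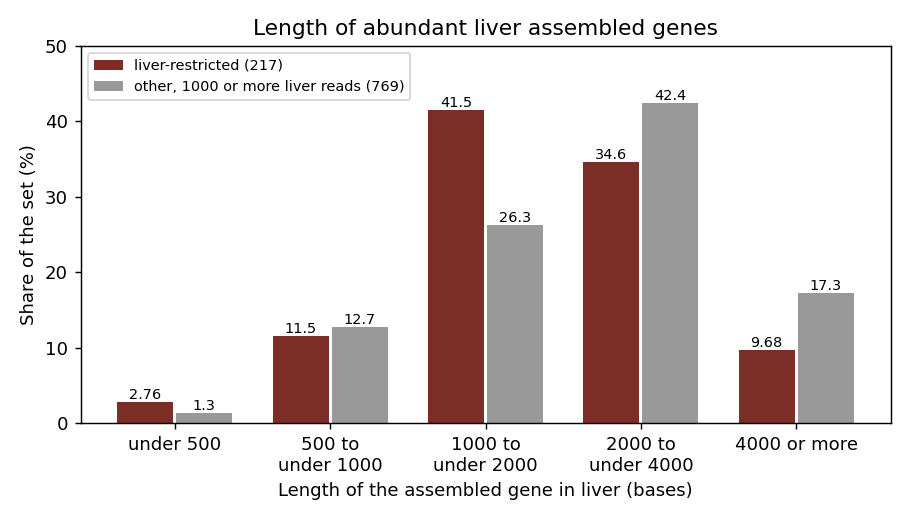
Share of the 217 liver-restricted assembled genes and of the 769 other assembled genes with 1000 or more liver reads (y axis, percent of each set) in 5 classes of length in liver (x axis, bases). The restricted set has its highest bar at 1000 to under 2000 bases (41.5%), the other set at 2000 to under 4000 bases (42.4%).

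The assembly gave 144 members a single transcript, 41 members 2 transcripts, and up to 8 to the rest. The share with 2 or more was 33.6%, close to the 36.8% of the other abundant liver transcripts and above the 10.7% of all assembled genes, most of which are short. For members with several transcripts, the deposited length is a mean over transcripts weighted by their abundance in each tissue. It moves when the use of long and short transcripts changes, but does not say which transcripts were used. It could be compared where another tissue had 10 or more reads. In receptor cells 35 members met this, and the transcripts in liver were at least 1.5-fold longer for 11 and at least 1.5-fold shorter for 0. In canals it was 11 longer and 0 shorter of 32, and in skin 8 longer and 0 shorter of 27. Read counts rise with transcript length, so the rule itself favours members whose transcripts are longer in liver. The direction of these shifts is therefore no independent result. In all, 14 of 44 members had a weighted length at least 1.5-fold longer in liver than in at least 1 other tissue, 10 than in at least 2 of them and 6 than in all 3. For most members the difference was small. The median size of the log2 length ratio, in either direction, was 0.17 against receptor cells, 0.11 against canals and 0.12 against skin.

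Among the other abundant liver transcripts, such differences were found in both directions. Against receptor cells 7 of 282 were longer in liver and 5 shorter, against canals 6 and 8 of 281, and against skin 7 and 8 of 279. They had far more reads in those tissues, with a median of 1570 in receptor cells where the members had 31. With the same limit of 10 to 99 reads, the members had 7 of 24 longer against receptor cells, 8 of 22 against canals and 6 of 21 against skin. The others then had 1 of 10, 1 of 15 and 2 of 15, and none of either set was shorter. The numbers are small, the tissues share the liver library, and no test was made. The members passed a rule on count ratios that rise with length in liver, and the others failed that same rule. The sets were thus selected in opposite directions, and the others are no unselected baseline.

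Examples from the members past the 1.5-fold limit, chosen after their values were seen, include the largest shifts. The member of rank 98 had 6116 reads in liver at a weighted length of 4537.7 bases, against 20 reads at 426.95 bases in receptor cells and 12 at 417 in canals. For rank 83 the values were 7633 reads at 3172.7 bases in liver, 22 at 325.73 in receptor cells and 64 at 316 in canals. Better covered was rank 56, with 14111 reads at 2002.9 bases in liver and 611 at 822.91 in receptor cells. Rank 39 had 27108 reads at 2105.3 bases in liver, 454 at 830.63 in skin and 274 at 837 in receptor cells. The direction was not the same in every tissue for rank 13, with 101477 reads at 2610.5 bases in liver. It had 51 reads at 1346 bases in receptor cells and 17 at 1005.3 in skin, but 28 at 3137 in canals. In TPM, which divides by length, rank 56 had 846.14 in liver and 94.34 in receptor cells. Rank 83 had 276.18 TPM in liver and 50.15 in canals. By TPM, both were thus less than 16-fold higher in liver, while the other examples given above stayed over 16-fold. They were not alone, since the rule on TPM lost 7 members. Rank 124 had 194.14 TPM in liver and 41.41 in receptor cells, and rank 174 had 1145.83 and 154.37. Rank 210 had 337.9 in liver and 77.67 in canals. These were also past the 1.5-fold length limit, as was rank 197, lost only with the 0.5 added. Rank 104 was lost with a length ratio of 1.37 against receptor cells.

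**Figure D5:**
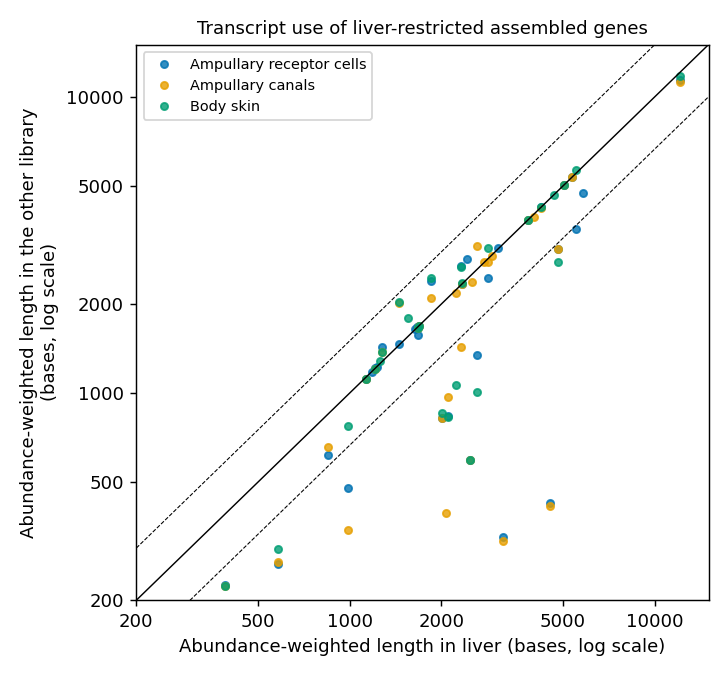
Abundance-weighted length of liver-restricted assembled genes with 2 or more transcripts in liver (x axis, bases, log scale) and in another library in which they had 10 or more reads (y axis, bases, log scale), 1 point per member and library. The solid line marks equal length and the dashed lines a 1.5-fold difference. Points beyond the dashed lines all lie on the side where liver is longer (11 for receptor cells, 11 for canals, 8 for skin). The rule, which used read counts, favours this side.

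Assembled genes whose identifiers share the part before _g were taken as 1 assembly cluster. They can be close copies, alleles or parts of 1 gene, but their sequences were not compared here. The 217 members came from 209 clusters, and 8 clusters held 2 members each. The most abundant pair had 68309 and 26474 liver reads at 3111 and 3056 bases, and the most even pair 8086 and 7275 at 502 and 507 bases. In the others the more abundant member had 1.43 to 4.42 times the reads of its partner. A cluster of several assembled genes held 31.8% of the members and 27.2% of the other abundant liver transcripts.

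The clusters of the members held 162 further assembled genes, whose tissue patterns varied. Of these, 52 had fewer than 10 reads in every library. Of the 110 others, 26 had their highest level in liver, among them 10 that met the 16-fold rule with 100 to under 1000 liver reads. Another 14 had 100 or more reads in another tissue and a level there at least 16-fold above liver. The shares of all assembled genes with such patterns were not computed, so these counts have no baseline. Assembled gene c86061_g5 (602 bases) had 35524 reads in skin, 34478 in canals, 9035 in receptor cells and 2481 in liver. Its cluster also holds the member of rank 30, with 41248 reads in liver and 20, 8 and 7 in receptor cells, canals and skin. Assembled gene c88739_g3 (3139 bases) was nearly as abundant in skin (12706 reads) as in liver (13575), with 164 in receptor cells and 32 in canals. Its cluster holds the members of ranks 168 and 191. The short member of rank 11 that led in TPM has a partner of 385 bases that had 10349 reads in skin, 990 in canals, 720 in receptor cells and 19 in liver. The transcript of 1389 bases given above, kept out by receptor cells alone, shares a cluster with the member of rank 67. That member had 11690 reads in liver and 0, 5 and 4 in receptor cells, canals and skin.

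Summed over their clusters, 184 of the 209 stayed liver-restricted by the same rule and 25 did not. Skin and receptor cells each kept out 21 of these and canals 17, with 15 kept out by all 3. RSEM divides reads among similar sequences, so the level of a member whose cluster holds a close copy is less certain than its count.

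By the same rule, 165 assembled genes were restricted to receptor cells, 142 to skin and 48 to canals. Of the assembled genes with 1000 or more reads in the tissue itself, this was 7.28% of 2268, 7.31% of 1942 and 2.77% of 1735, beside 22.0% in liver. Their share of their own library was 8.683%, 13.9% and 7.977%, in the same order, beside 49.94% for the liver set. Median lengths of the sets were 2545, 1929 and 1578 bases, beside 1852 for liver. The 10 most abundant members made up 45.8% of the set's reads in receptor cells, 58.1% in skin, 89.2% in canals and 49.2% in liver. These values come from 1 library each, and the differences between the sets were not tested. Each tissue had to exceed a different set of other tissues, so the rule need not be equally strict for all of them. Whether this bears on the sizes of the sets was not tested.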

How the data were processed

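Messenger RNA of 4 tissues of 1 adult skate was measured, 1 library per tissue, with totals of 11071249 to 12303108 reads. The authors' deposited expected counts are reads per assembled gene as estimated by RSEM 1.1.17, per the submitters' processing notes, and are not normalized. The deposited TPM and FPKM values, per the file headers, are scaled for length and depth. FPKM was not used further. How the transcriptome was assembled and reads aligned is not given in the sources used. Length columns are means over transcripts weighted by abundance.

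Expected counts were rounded to whole numbers and divided by library totals (CPM). Members were found by the rule given above, which was checked on simulated counts. Members and all sets were chosen with earlier results of these data known. The identifiers printed are, for each comparison of liver with another tissue, the 2 members whose exact (Clopper-Pearson) ratio interval ends highest at its lower end, plus the 2 partners in clusters with most reads outside liver. Other members go by rank in liver reads, and those picked as examples were chosen after their values were seen. The lists of marker genes could not be applied because the identifiers carry no names. Alternative scalings used edgeR 4.0.16 and DESeq2 1.42.0 (R 4.3.3). Other steps used Python 3.11.15, pandas 2.3.3 and SciPy 1.17.1. Transcript sequences were not used here.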

Additional observations from a re-analysis of the deposited data

How the results depend on the processing

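No paired analysis was possible because there are no replicates, which also leaves no replicate to omit. The number of liver-restricted assembled genes, 217, lay between 176 and 248 under 13 of 15 alternatives. It was 478 with a minimum of 100 liver reads and 111 with a minimum of 5000, as a lower or higher minimum must give. All 217 remained with TMM factors, DESeq2 size factors, library totals without the 50 most abundant liver assembled genes, a pseudocount of 0.1 and 8-fold. None of these could remove a member. The scalings raised liver against the other tissues, a smaller pseudocount raises such ratios, and 8-fold is a looser limit. TPM kept 210 and added 4, and a pseudocount of 2 kept 212. A larger pseudocount, 64-fold and the limit of 500 bases could only remove members, and leaving a tissue out could only add them. The share of liver reads moved beyond its counting interval, which is narrow, to 51.69% with TMM factors, 51.56% with DESeq2 size factors, 51.07% without the 50 most abundant, 49.78% with TPM, 49.66% with a pseudocount of 2, 50.79% and 47.57% with the minimum of 100 and 5000 reads, 51.31% at 8-fold, 46.7% at 64-fold, 48.7% with cluster sums and 48.27% for 500 bases or more. With receptor cells, canals or skin left out of the comparison it was 50.68%, 50.45% and 50.7%. The 15 members without reads elsewhere became 136 with the minimum of 100, 0 with that of 5000 and 7 with cluster sums. Of the 114 values of lesser results under alternatives, 94 stayed within set limits and 20 did not. The limits were 1.5 times for counts and lengths, and the counting interval of the reported value for shares. For log2 ratios, taken here with the pseudocount added, the limit was the counting interval of the ratio without it. These are unlike measures, and even the main log2 ratios of c94606_g1 and c88276_g1 lay below that interval. These limits are wide. With TMM factors 108 members in place of 72 were next highest in canals, exactly 1.5 times as many. With a pseudocount of 0.1 the log2 ratio of c94606_g1 was 14.27, in place of 13.16 with the pseudocount of 0.5. Of the 20, 11 are log2 ratios of the 6 named members, all of which kept liver higher (11.52 to 14.71). These members were picked for their very large ratios, so none of the settings could have reversed them. Where the lower tissue has 0 to 3 reads, depth limits the ratio.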

Other observations

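Below the read limit of the set, 6371 assembled genes had from 100 to under 1000 reads in liver. The same 16-fold rule was met by 261 of them (4.1%), which together held 0.843% of the liver reads. Their median length was 1040 bases and their median count 266 reads. No read in any other library was found for 121 of the 261. At this depth a transcript with few liver reads can meet the rule only with almost no reads elsewhere. Of the 261, 94 lie in assembly clusters of several assembled genes, and 10 in a cluster that also holds an abundant liver-restricted member. This count was made after the values of the more abundant set were seen.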
